A study of Danio rerio with 12 samples.

Results

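The genes described here are 10 keratins of the zebrafish embryonic skin, taken by their Ensembl identifiers from the 32520 genes counted in each library. They are 3 type II keratins, *krt4* (ENSDARG00000017624), *krt5* (ENSDARG00000058371) and *krt8* (ENSDARG00000058358), and 7 type I keratins, *krt17* (ENSDARG00000094041), *krt18a.1* (ENSDARG00000018404), *krt91* (ENSDARG00000036830), *krt92* (ENSDARG00000036834), *krt97* (ENSDARG00000000212), *cyt1* (ENSDARG00000092947) and *cyt1l*. Of the 10 identifiers chosen, 9 had counts. *cyt1l* was therefore taken by its symbol, which belongs to ENSDARG00000036832. The choice used names and function rather than measured values, but it was made with earlier results of these data known. The study had itself named *krt17*, *krt97*, *krt92* and *cyt1* among its SM genes from these same libraries, so their direction in SM is not independent evidence.

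The libraries held poly-A RNA of whole wild-type embryos (AB line) at 1 day post fertilization (dpf). A factorial design crossed temperature with medium and gave 4 treatments of 3 libraries each, every library being a pool of 20 embryos. TS+SM embryos received thermal stress in medium containing stress metabolites, TS embryos thermal stress in fresh medium, SM embryos stress metabolites at 27 °C, and C embryos fresh medium at 27 °C. Thermal stress was 19 cycles between 27 and 32 °C in steps of 15 min over 24 h. Stress metabolites (SM) were whatever heat-stressed embryos had released into their medium on the previous day. All embryos developed singly, in darkness, for 24 h. In its phenotype data the study found heat-stressed embryos at a later stage than controls after this time. It had no stage-matched control, so heat and developmental stage cannot be told apart in the heat comparisons. Medium from unstressed embryos was not analysed here, so the SM comparisons set used medium against fresh medium.

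Keratins are the intermediate filament proteins of epithelial cells, and each filament is built from paired type I and type II chains. At this age the zebrafish skin is an outer periderm, descended from the enveloping layer of the early embryo, lying over a basal epidermis. *krt4* is a widely used marker of the outer layer, *cyt1* is a type I cytokeratin of the enveloping layer, and *krt8* with *krt18a.1* are counterparts of the keratin pair of simple epithelia in mammals. In counts from whole embryos, fewer skin cells and less keratin RNA per cell cannot be told apart.

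Library totals ran from 18764434 to 60239167 counts, the highest being the first TS+SM pool. Levels are given in CPM, the counts of a gene scaled to a common library total, adjusted by the trimmed mean of M-values (TMM), a factor that corrects for RNA composition. Gene length was not applied, so levels are compared between samples and not between genes. TMM factors ranged from 0.74 in TS+SM pool 1 to 1.23 in TS pool 3, and the scaling moves all keratins of a library together. As a share of all counts, which uses no such factor, the 10 keratins made up 3.28, 2.91 and 2.50% in TS+SM, 2.73, 2.52 and 2.44% in TS, 3.22, 2.98 and 3.72% in SM, and 2.6, 2.28 and 2.29% in C. The share was thus higher in every SM pool than in any C pool. *krt4* alone gave 56.6 to 65.1% of the keratin counts and ranked between 1 and 3 among all genes of each library.

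Among the type II keratins, the periderm keratin *krt4* had 26872, 19679 and 13839 CPM in TS+SM, 18770.3, 17643 and 12085 CPM in TS, and 19944, 17350.4 and 23094 CPM in SM, against 16398, 12972 and 11095 CPM in C. All 3 SM pools lay above all 3 C pools, while both heat groups overlapped C. *krt5*, an epidermal keratin, had 4267, 2801 and 1926 CPM in TS+SM, 2744, 2770.1 and 1642 CPM in TS, and 4611, 3361 and 4643 CPM in SM, against 3247, 2705 and 2422 CPM in C. Its SM pools again stood above C, and its heat pools spread on both sides of the C range. *krt8* had 1108, 888 and 658 CPM in TS+SM, 798, 745 and 1146 CPM in TS, and 1080.2, 851 and 737 CPM in SM, against 799, 705 and 835 CPM in C. The 4 groups of *krt8* overlapped throughout.

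The type I keratin *krt17* had 362, 229 and 153 CPM in TS+SM, 240.5, 213 and 152 CPM in TS, and 605, 372 and 619.6 CPM in SM, against 265, 248 and 305 CPM in C. SM pools were above C, TS pools were below C, and every TS+SM pool was below every SM pool. *krt92* had 1021, 712 and 433 CPM in TS+SM, 593, 527 and 417 CPM in TS, and 1447, 775 and 1225 CPM in SM, against 619, 615 and 661 CPM in C. Like *krt17*, it was above C in all SM pools and below C in all TS pools.

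*krt91* showed another order. It had 291, 182 and 105 CPM in TS+SM, 211, 126 and 169 CPM in TS, and 137, 134 and 154 CPM in SM, against 79.1, 82.2 and 105 CPM in C. All TS pools and all SM pools exceeded C, and of the TS+SM pools only the third fell within the C range. *krt97* had 306, 269 and 172 CPM in TS+SM, 219, 207 and 164 CPM in TS, and 259.8, 215 and 255 CPM in SM, against 149.8, 159 and 133 CPM in C. This was the one keratin whose 3 treated groups each lay wholly above C. Taken singly, that held for 6.83% of all genes in TS+SM, 5.81% in TS and 4.32% in SM. The 3 comparisons share the same C pools, and the joint share was not computed.

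*cyt1* had 4611, 2734 and 1973 CPM in TS+SM, 2270.0, 2159 and 1809 CPM in TS, and 3259, 2250.0 and 3867 CPM in SM, against 2017, 1557 and 1737 CPM in C. Its neighbour *cyt1l* had 5169, 3234 and 2296 CPM in TS+SM, 2693, 2658 and 1854 CPM in TS, and 3484, 2469 and 3704 CPM in SM, against 2275, 1855 and 1787 CPM in C. Both had all SM pools above C, and *cyt1l* had all TS+SM pools above C as well. *krt18a.1* had 295, 352 and 359 CPM in TS+SM, 303, 325 and 489 CPM in TS, and 387, 367 and 248 CPM in SM, against 275, 339.7 and 366 CPM in C, with all groups overlapping. Counts that map to several genes were not assigned, so reads common to near-identical keratin copies would be missing from these values.

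**Figure D1:**
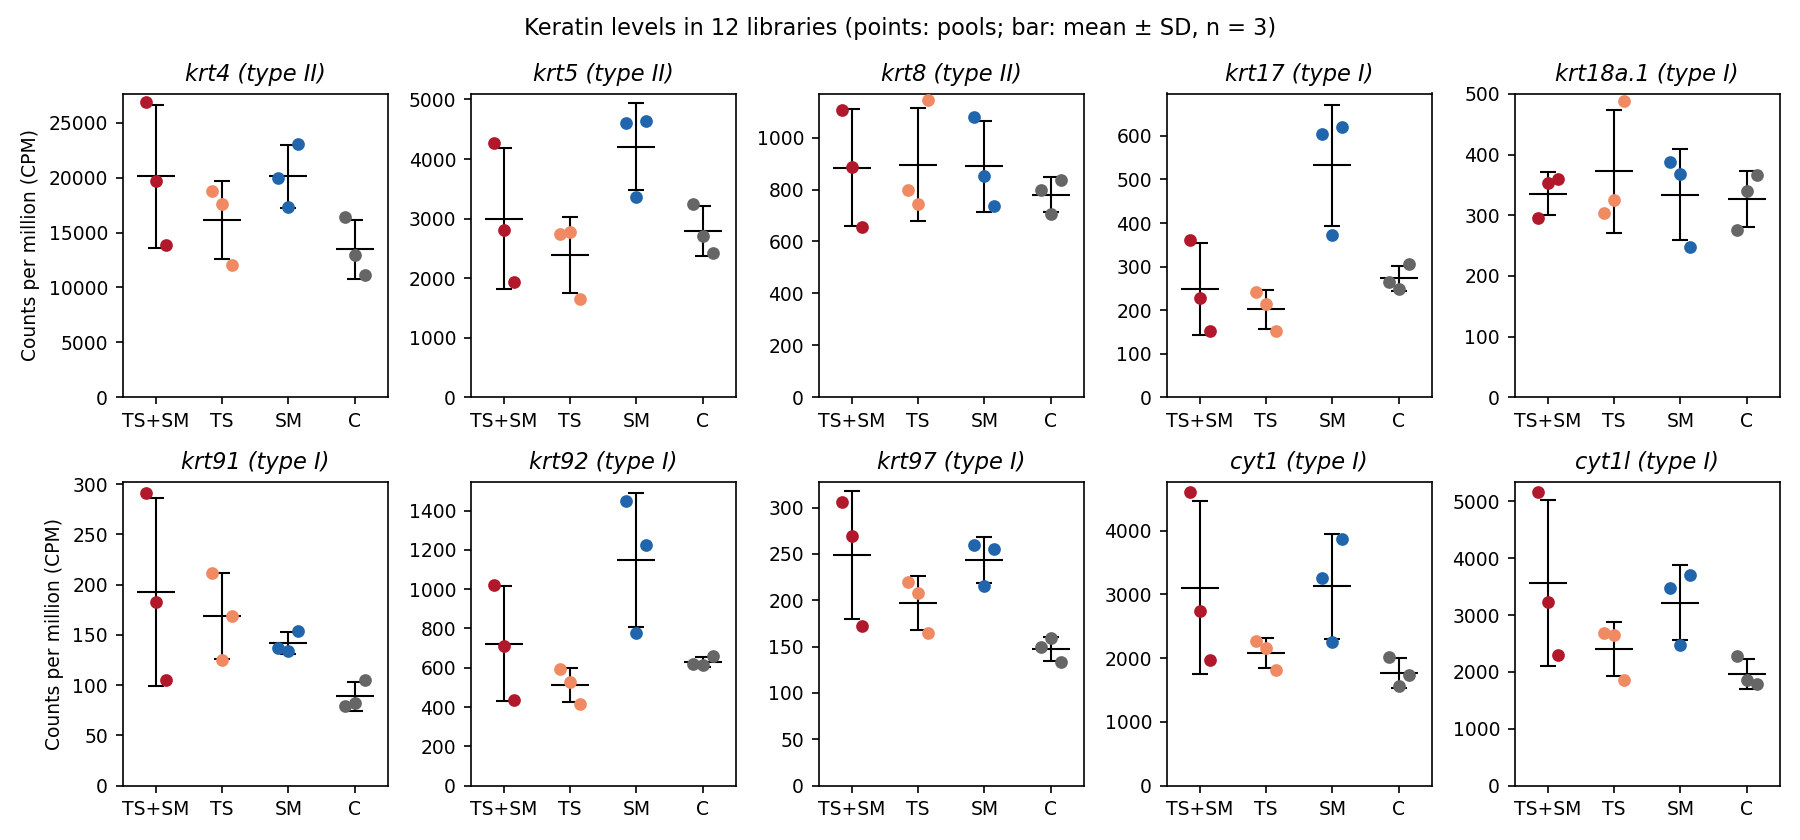
CPM of the 10 keratins (1 panel each) in TS+SM, TS, SM and C pools. Points are single pools and bars the mean ± SD (n = 3). SM pools lie above C pools for all but *krt8* and *krt18a.1*, and the TS+SM pools spread widely, with *krt91* between 105 and 291 CPM.

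The first question was how keratins responded to stress metabolites without heat. The level was higher in SM than in C for 10 of 10 keratins, with a median log2 fold change (LFC) of 0.69, against a median of -0.01 over the 18688 genes tested. For 8 of 10 keratins all SM pools lay above all C pools, against 4.32% of all genes. These 8 include *krt17*, *krt97*, *krt92* and *cyt1*, which the study had picked from these same libraries. Neither this count nor the 10 of 10 is therefore independent evidence. LFC was largest for *krt17*, at 0.96 ± 0.30 (SE), followed by *krt92* at 0.86 ± 0.30, *cyt1* at 0.82 ± 0.31, *krt97* at 0.72 ± 0.21, *cyt1l* at 0.71 ± 0.30 and *krt91* at 0.67 ± 0.31. The type II keratins *krt5* (0.59 ± 0.31) and *krt4* (0.58 ± 0.31) came next. *krt8* (0.19 ± 0.24) and *krt18a.1* (0.03 ± 0.23) differed by less than their standard errors, and *krt18a.1* turned to -0.12 when library size alone was used for scaling.

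None of the 10 keratins passed an adjusted P (P-adj) of 0.05 in SM against C in edgeR's quasi-likelihood test with Benjamini-Hochberg adjustment, where the lowest P-adj among them was 0.989, and DESeq2 also called 0. Among all genes the share at P-adj 0.05 was 0%. At the unadjusted P of 0.01 that the study used, edgeR called 2 of 10, *krt97* and *krt17*, against 0.251% of all genes. The study had picked both, with *krt92* and *cyt1*, from these same libraries, so this count is not independent evidence. With the threshold at 0.05, 6 of 10 were called, against 2.12% of all genes. These 6 include *krt17*, *krt97*, *krt92* and *cyt1*, so the same limit holds. The count at 0.01 was 0 without SM pool 1, without SM pool 3 and without any single C pool, 1 without TS pool 2 or TS+SM pool 2, and 4 without TS+SM pool 1. It was 4 with DESeq2, which the study used, and 6 when only the SM and C libraries were fitted. The 4 were *krt97*, *krt17*, *krt92* and *cyt1*, the members that the study had named.

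Under thermal stress alone the keratins went both ways. In TS against C, 7 of 10 were higher and 3 lower, with a median LFC of 0.22 against 0.00 for all genes. *krt91* was higher in TS by an LFC of 0.93 ± 0.31 and *krt97* by 0.42 ± 0.21, and in both all TS pools lay above all C pools (5.81% of all genes). The study had picked *krt97* in SM against C, which uses the same C pools. Without the TMM factor the *krt91* pools overlapped, as TS pool 2 had 2471 of 21340207 counts and C pool 3 had 3006 of 24254412. *krt17* (-0.43 ± 0.30) and *krt92* (-0.30 ± 0.30) had all TS pools below all C pools (5.47% of all genes). None passed P-adj 0.05 in edgeR with Benjamini-Hochberg adjustment (0.0963% of all genes did) or in DESeq2. The edgeR count at an unadjusted P of 0.01 was 0 (1.46% of all genes), and at 0.05 it was 1 of 10, *krt91*, against 4.45% of all genes. With DESeq2, without TS pool 2, without TS+SM pool 1 and without TS+SM pool 3 the count at 0.01 was 1. With same-numbered pools taken as pairs it was 0. Although their groups overlapped, *krt4*, *cyt1* and *cyt1l* were higher in the TS pool than in the C pool of the same number for each number. This also held for *krt91* and *krt97*. The share of all genes for which it held was not computed, so it is a description only.

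With both stressors, 9 of 10 keratins were higher in TS+SM than in C, with a median LFC of 0.39 against -0.03 for all genes. That median was 0.22 without TS+SM pool 1 and 0.64 without TS+SM pool 3. *krt91* had the largest LFC, 1.12 ± 0.31, and *cyt1l* (0.85 ± 0.30), *cyt1* (0.81 ± 0.31) and *krt97* (0.76 ± 0.21) followed. The LFC of *cyt1l* was 0.49 and that of *cyt1* 0.41 without TS+SM pool 1. *krt97* and *cyt1l* were the 2 of 10 keratins with all TS+SM pools above all C pools, against 6.83% of all genes. *krt17*, the strongest of the SM keratins by LFC, was the one below C, at -0.14 ± 0.30, and was at 0.14 without TS+SM pool 3. When library size alone was used for scaling, 5 keratins were higher and 5 lower, while all genes shifted to a median of -0.24.

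In edgeR with Benjamini-Hochberg adjustment 0 of 10 keratins passed P-adj 0.05 in TS+SM against C (0.171% of all genes), the lowest being 0.317 for *krt97* and 0.326 for *krt91*. DESeq2 called 1, *krt91*, with a Benjamini-Hochberg P-adj of 0.043 where edgeR had 0.326, and called 0.924% of all genes. By unadjusted P at 0.01 the edgeR count was 2 of 10, *krt97* and *krt91*, against 2.02% of all genes, and at 0.05 it was 4 of 10, against 6.24%. These 4 include *krt97* and *cyt1*, which the study had picked in SM against C. That comparison uses the same C pools, so neither count is wholly independent evidence. TS+SM pool 1, which was sequenced most deeply and had the lowest TMM factor, gave the highest CPM of all libraries for 5 of the 10 keratins. That rank depends on the factor for some of them. *krt4* had 1197529 of 60239167 counts in TS+SM pool 1, a smaller share than its 558275 of 25065103 in SM pool 3. Without TS+SM pool 1 the count at 0.01 was 0 and the LFC of *krt91* was 0.69. Without TS+SM pool 3, which was the lowest of its group for 9 of 10 keratins, the count was 4 and the LFC of *krt91* was 1.44, and without any single C pool or TS+SM pool 2 the count was 1. With same-numbered pools taken as pairs the count at 0.01 was 3, with *cyt1l* as the added call, and still 0 at P-adj 0.05. *krt4*, *krt97*, *cyt1* and *cyt1l* were higher in the TS+SM pool than in the C pool of the same number for each number. The share of all genes for which this held was not computed, so it is a description only.

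**Figure D2:**
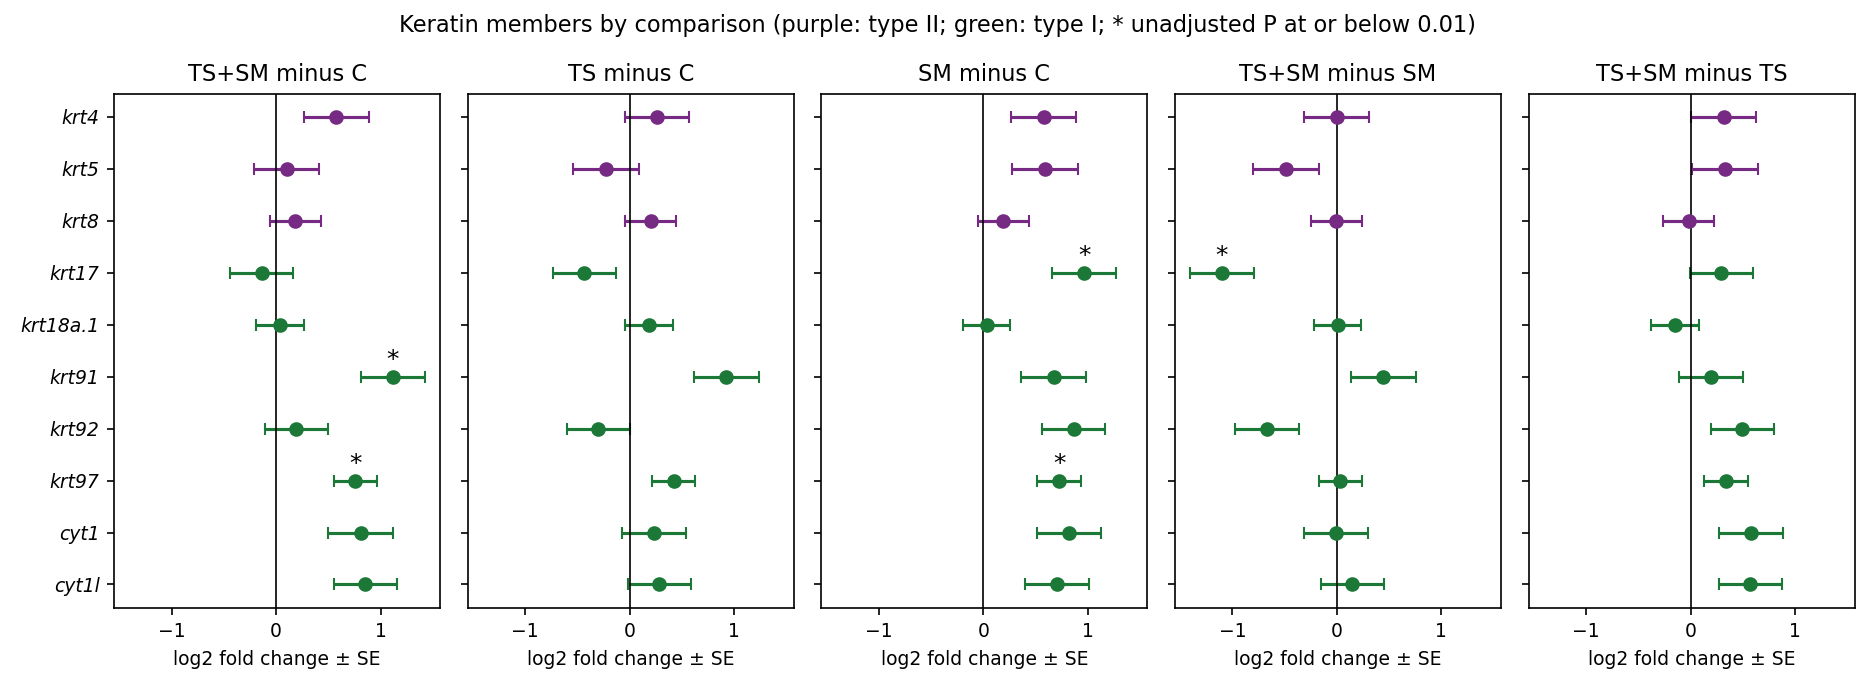
Log2 fold change ± SE from edgeR for each keratin in 5 comparisons, with type II keratins in purple, type I in green, and an asterisk at an unadjusted P of 0.01 or below. All 10 points lie above 0 for SM minus C, and *krt17* is at -1.10 for TS+SM minus SM.

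The next comparison asked what heat did to embryos already in stress medium. Between TS+SM and SM, 5 of 10 keratins were higher and 5 lower, with a median LFC of 0.00. *krt17* stood apart. It was lower in TS+SM by an LFC of -1.10 ± 0.31, with all TS+SM pools below all SM pools (4.64% of all genes). *krt92* (-0.67 ± 0.30) and *krt5* (-0.49 ± 0.31) were lower with overlapping pools, and *krt91* was higher, at 0.45 ± 0.31. The study had picked *krt17* and *krt92* as higher in SM than in C, a comparison that uses the same SM pools. Their lower values in TS+SM are therefore not independent evidence. The LFCs of this comparison moved with single pools. The LFC without TS+SM pool 1 was 0.02 for *krt91*, -0.83 for *krt5* and -1.01 for *krt92*, and without TS+SM pool 3 it was 0.75, -0.24 and -0.40 in the same order. *krt4* differed by 0.00 ± 0.31, *cyt1* by -0.01 ± 0.31 and *krt97* by 0.03 ± 0.21, all within their SE and of either sign between alternatives.

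None of the 10 passed P-adj 0.05 in edgeR with Benjamini-Hochberg adjustment (0.107% of all genes did), where *krt17* had a P-adj of 0.374, and DESeq2 also called 0. At the unadjusted P of 0.01 edgeR called 1 of 10, *krt17*, against 2.01% of all genes, and at 0.05, 2 of 10 were, against 6.01%. These 2 were *krt17* and *krt92*, so neither count is independent evidence. The call at 0.01 was lost without SM pool 1, SM pool 3 or TS+SM pool 2, and when only the 6 TS+SM and SM libraries were fitted. Without TS+SM pool 1 the count was 2.

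The question of what stress medium did to embryos under heat was addressed by TS+SM against TS. In this comparison, 8 of 10 keratins were higher and 2 lower, with a median LFC of 0.32 against -0.01 for all genes, and *cyt1* (0.58 ± 0.31) and *cyt1l* (0.57 ± 0.30) had the largest values. The pools overlapped for every keratin. At P-adj 0.05 in edgeR with Benjamini-Hochberg adjustment the count was 0, as it was in DESeq2 and for 0% of all genes. The unadjusted counts were 0 at 0.01 (0.155% of all genes) and 0 at 0.05 (1.45%). Without TS+SM pool 3 it was 1 at 0.01, and the median LFC lay between 0.02 without TS+SM pool 1 and 0.56 without TS+SM pool 3. The LFC was 0.18 for *cyt1* and 0.20 for *cyt1l* without TS+SM pool 1.

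The interaction term compares the effect of SM under heat with its effect at 27 °C. It was below 0 for 10 of 10 keratins, with a median of -0.26 on the log2 scale against 0.00 for all genes, and the value furthest from 0 was that of *krt17*, at -0.67 ± 0.43. The term subtracts the SM against C difference, in which the study had picked *krt17*, *krt97*, *krt92* and *cyt1* from these same libraries. A high value there lowers the term, so the count of 10 is not independent evidence. No keratin passed P-adj 0.05 in edgeR with Benjamini-Hochberg adjustment or in DESeq2, and 0% of all genes did in edgeR. The counts at an unadjusted P of 0.01 and of 0.05 were 0 and 0, against 0.123% and 0.915% of all genes. A difference of the SM effect between temperatures was not detectable with 3 pools per treatment. The median of the interaction term lay between -0.59 without TS+SM pool 1 and -0.07 without TS+SM pool 3.

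Averaging each factor over the other used 6 libraries against 6. For SM averaged over temperature, 9 of 10 keratins were higher in stress medium, with a median LFC of 0.50 against -0.01 for all genes. *cyt1* (0.70 ± 0.22), *krt92* (0.68 ± 0.21), *cyt1l* (0.64 ± 0.21), *krt17* (0.63 ± 0.21) and *krt97* (0.53 ± 0.15) had the largest values. None passed P-adj 0.05 (0% of all genes; lowest P-adj 0.802 in edgeR with Benjamini-Hochberg adjustment, and 0 calls in DESeq2). The edgeR calls at an unadjusted P of 0.01 were 3 of 10, *krt97*, *cyt1* and *krt92*, against 0.391% of all genes. The study had picked all 3 in SM against C from libraries used here, so this count is not independent evidence. At 0.05, 5 of 10 were called, against 3.82%. These 5 include *krt17*, *krt97*, *krt92* and *cyt1*, so the same limit holds. The count at 0.01 was 5 with DESeq2 and ran from 0 to 6 when single libraries were left out, with 0 without C pool 3 or TS+SM pool 2 and 1 without C pool 2, SM pool 1, SM pool 3, any single TS pool or TS+SM pool 1. It was 5 without SM pool 2 and 6 without TS+SM pool 3.

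For heat averaged over medium, the median LFC was 0.10, and it lay between -0.0026 without TS+SM pool 1 and 0.21 without TS+SM pool 3. *krt17* was lower by -0.77 ± 0.21 and *krt91* higher by 0.69 ± 0.22. *krt92* (-0.49 ± 0.21) and *krt5* (-0.36 ± 0.22) were also lower. In edgeR with Benjamini-Hochberg adjustment 0 of 10 passed P-adj 0.05 (0.851% of all genes), with 0.165 for *krt17* and 0.244 for *krt91*. DESeq2 called 1, *krt17*, with a P-adj of 0.0259, where it called 2.43% of all genes, and edgeR with library size alone also called *krt17*, with a P-adj of 0.0258. Without TS+SM pool 3, edgeR called *krt91*, with a P-adj of 0.044. By unadjusted P, edgeR called 2 of 10 at 0.01, *krt17* and *krt91*, against 3.79% of all genes, and at 0.05, 3 of 10, against 9.36%. The count at 0.01 was 0 without SM pool 1, SM pool 3, TS pool 3 or TS+SM pool 2, 1 without any single C pool, SM pool 2 or TS pool 1, and 2 without TS pool 2, TS+SM pool 1 or TS+SM pool 3.

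Because scaling cancels in a ratio of keratins within a library, the ratios show how the keratin mix differed. This comparison was chosen after the values had been seen. Of the 45 pairs of keratins, 14 (31.1%) had ratios that did not overlap between the 6 heat libraries (TS+SM and TS) and the 6 libraries at 27 °C (SM and C). Among 3267846 pairs of the 2557 genes with a mean of at least 50 CPM the share was 3.44%. The pairs share genes and are not independent of each other. In each of the 14, the partner that was relatively lower under heat was *krt17*, *krt92* or *krt5*, and the other was *krt91*, *krt97*, *cyt1l*, *cyt1*, *krt4* or *krt8*. Of these, the study had picked *krt17*, *krt92*, *krt97* and *cyt1* in SM against C. Those libraries are the 27 °C side here, so 31.1% is not a share among unselected genes.

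Counts of *krt91* per count of *krt17* were 0.805, 0.797 and 0.686 in TS+SM and 0.878, 0.589 and 1.11 in TS, against 0.227, 0.359 and 0.249 in SM and 0.299, 0.331 and 0.345 in C. The lowest heat library was thus well above the highest library at 27 °C. *krt4* per *krt5* ran from 6.30 to 7.18 in TS+SM and from 6.37 to 7.36 in TS, against 4.33 to 5.16 in SM and 4.58 to 5.05 in C, with a narrow range inside each group. *krt17* per *cyt1l* ran from 0.0665 to 0.0707 in TS+SM and from 0.0802 to 0.0893 in TS, against 0.151 to 0.174 in SM and 0.116 to 0.171 in C.

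Between the media, 0 of the 45 pairs had ratios that separated the 6 libraries in stress medium from the 6 in fresh medium, a count near the background, where 0.133% of the pairs of all such genes did. Within a temperature some pairs did separate, with 3 libraries on each side. In SM against C, 9 of 45 pairs (20%) had ratios that did not overlap, against 7.06% of the pairs of all such genes, and the partner relatively lower in SM was *krt8* in 6 of them and *krt18a.1* in 3. The other partners include *krt17*, *krt97*, *krt92* and *cyt1*, which the study had picked as higher in SM from these same libraries. This count is therefore not independent evidence. *krt8* per *krt17* ran from 1.19 to 2.28 in SM, against 2.74 to 3.02 in C. *krt18a.1* per *krt91* ran from 1.61 to 2.82 in SM, against 3.48 to 4.13 in C. In TS+SM against TS, 6 of 45 pairs (13.3%) did not overlap, against 4.34% of all such pairs. The corresponding counts for heat were 20 of 45 (44.4%) in TS+SM against SM, where the background was 12.3%, and 19 of 45 (42.2%) in TS against C, where it was 14.8%. In TS+SM against SM the lower partners include *krt17*, *krt92* and *cyt1*, picked by the study as higher in these SM pools. That count is therefore not independent evidence either. Type I over type II keratins, summed, was 0.330 to 0.374 in TS+SM and 0.293 to 0.340 in TS, against 0.305 to 0.374 in SM and 0.278 to 0.355 in C, and all groups overlapped. For heat, the count of separating pairs was also 14 with unstranded counts. It was 14 or 15 when any single library was left out, but leaving a library out cannot lower this count, so that range does not test it.

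**Figure D3:**
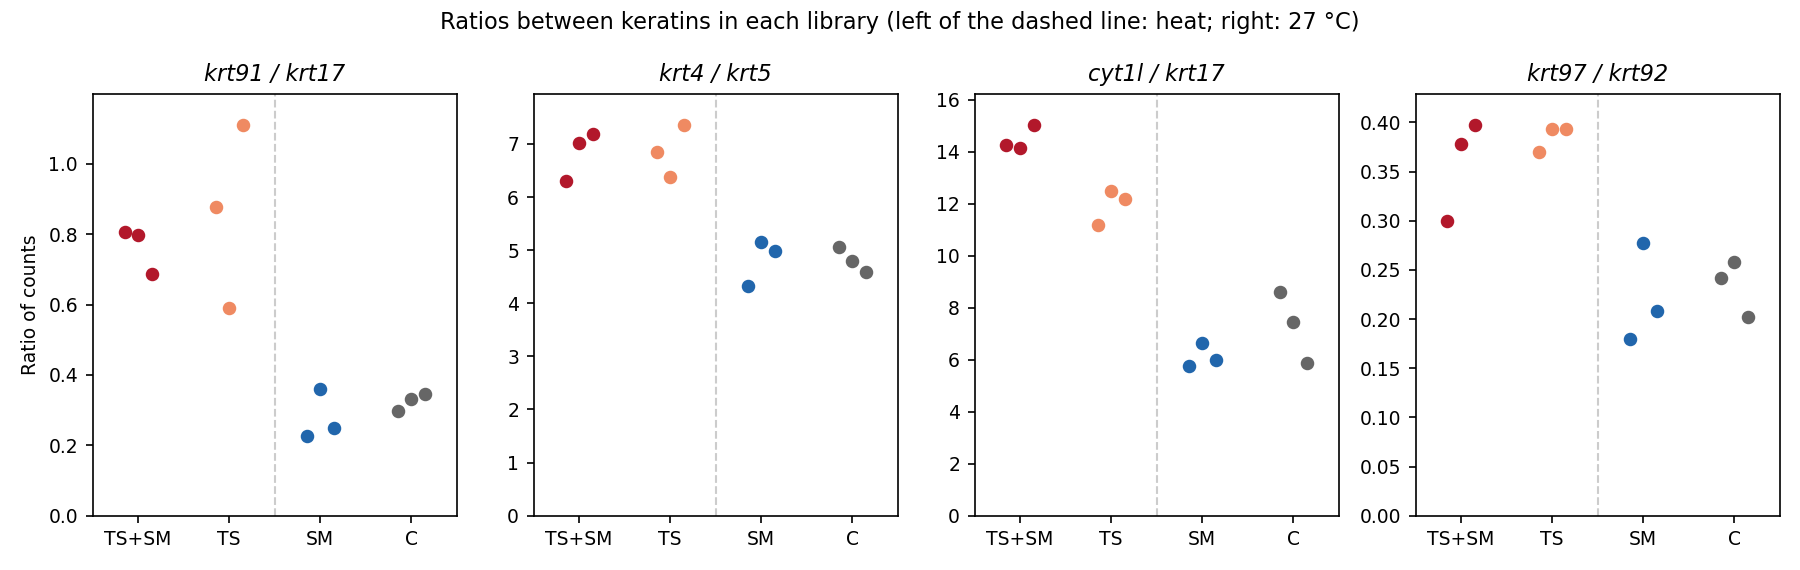
Ratios of counts between pairs of keratins in each pool, with TS+SM and TS left and SM and C right of the dashed line. For *krt91* over *krt17* the heat pools lie between 0.589 and 1.11 and the pools at 27 °C between 0.227 and 0.359.

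**Figure D4:**
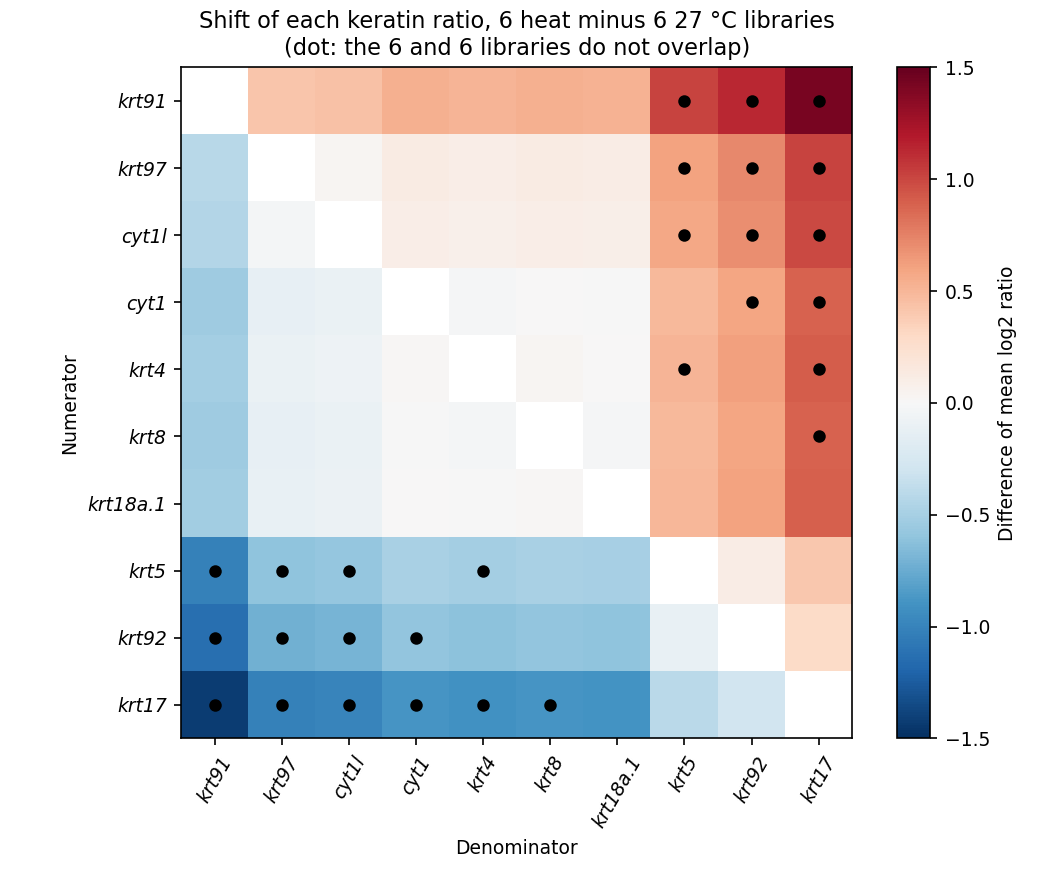
Difference of the mean log2 ratio (numerator row over denominator column) between the 6 heat libraries and the 6 at 27 °C, for all pairs. Dots mark the 14 pairs whose libraries do not overlap (each pair appears above and below the diagonal), all with *krt17*, *krt92* or *krt5* as the lower partner.

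Some of the keratins that parted under heat are neighbours. In the gene order of the RefSeq annotation of assembly GRCz12tu, which is not the build of the counts and was used for neighbours only, *krt92*, *cyt1l*, *cyt1*, *krt17* and *krt91* follow each other without another gene between them. *krt17* and *krt91*, the keratins with the lowest and highest LFC under heat, are adjacent. *krt5*, *krt8* and *krt18a.1* form another run, while *krt4* and *krt97* lie elsewhere, next to other keratin genes or within a few genes of one. Reads on the opposite strand of the 10 keratins were 0.0209 to 0.401% of their counts.

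Across the 12 libraries, log2 CPM of the 45 keratin pairs correlated with Pearson's r from -0.62 to 0.97 and a median of 0.58, given as a description since the libraries share treatments and scaling factors. *cyt1* and *cyt1l* were closest (r = 0.97), and *krt17* and *krt92* nearly as close (r = 0.96). *krt18a.1* ran against the mean of the group (r = -0.35) and *krt8* followed it loosely (r = 0.49). The genes outside the 10 whose log2 CPM followed the keratin mean most closely were *si:ch211-166a6.5* (r = 0.98), ENSDARG00000097825 (0.97), *fbxo2* (0.96), *anxa1c* (0.94), an annexin, and *selenow1* (0.94). They were taken from 8148 genes with a mean of at least 10 CPM, of which 0.295% exceeded 0.9.

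The remaining annotated keratins had the same direction in SM. Of 11, 8 had enough counts to be tested, and all 8 were higher in SM than in C, with a median LFC of 0.41 and no call at an unadjusted P of 0.01. The most abundant, *krt1-19e* and *krt18b*, had LFCs of 0.65 ± 0.25 and 0.25 ± 0.21. For heat averaged over medium 5 were higher and 3 lower, and 3 were called at an unadjusted P of 0.01, against 3.79% of all genes, with 0 passing P-adj 0.05 in edgeR with Benjamini-Hochberg adjustment. Those 3 are named here after their values were seen. *krt1-19e* (0.80 ± 0.18) and *krt15* (0.80 ± 0.19) were higher and *krt99* (-1.15 ± 0.30) was lower in the heat libraries.

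Other genes of the outer skin were also higher in SM. All 17 of the 17 tested periderm and outer epidermis genes were above C by their LFC, against 48.2% of all genes. Their median was 0.29, and none passed an unadjusted P of 0.01. The list as chosen holds *anxa1a*, which the study had named among its SM genes from these same libraries. The count is therefore not wholly independent evidence. *anxa1c* had an LFC of 0.61 ± 0.27 and *cfl1l*, a cofilin, 0.29 ± 0.23. Their summed level was 1697 to 2254 CPM in SM, against 1272 to 1694 CPM in C. Basal epidermis genes were higher for 10 of 11, with a median of 0.27, among them *cldni*, a claudin, at 0.10 ± 0.27, and *lama5*, a laminin chain, at 0.15 ± 0.17. Under heat averaged over medium the periderm list had 5 higher and 12 lower with a median of -0.11, and the basal list 4 higher and 7 lower with a median of -0.06.

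Genes that anchor keratins or control epidermal fate had medians nearer 0 in SM. Desmosome and envelope genes, which tie keratin filaments to cell junctions, had 7 of 11 higher in SM than in C and a median of 0.06, with *ppl*, the linker periplakin, at 0.34 ± 0.16 and *perp* at -0.09 ± 0.25. Epidermal transcription factors had 11 of 14 higher in SM with a median of 0.08, and 2 higher and 12 lower under heat averaged over medium with a median of -0.20. The most abundant of them, *tfap2a* and *msx1b*, differed under heat by -0.08 ± 0.08 and -0.19 ± 0.21. None of either list passed P-adj 0.05 in edgeR with Benjamini-Hochberg adjustment in SM against C or for heat averaged over medium.

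Intermediate filaments outside the keratins were evenly split in SM, with 6 of 12 higher in SM than in C and a median of 0.00. Under heat averaged over medium, 8 were higher and 4 lower, with a median of 0.17, and 2 of 12 rose at P-adj 0.05, where 0.851% of all genes were called, *nefma*, a neurofilament chain (LFC 0.99, P-adj = 0.0168 in edgeR with Benjamini-Hochberg adjustment), and *ngs*, a notochord gene (LFC 1.12, P-adj = 0.0226).

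Markers of other tissues moved with the same factors, and their part in the keratin values was not tested. Of 10 skeletal muscle markers listed, 5 were matched by name. All 5 were lower in SM than in C, with a median LFC of -0.41 and a summed level of 2102 to 2656 CPM in SM, against 2783 to 3838 CPM in C. In the heat groups their sum was 2971 to 5156 CPM in TS+SM and 3601 to 7422 CPM in TS. By gene they were split under heat averaged over medium, with 3 higher and 2 lower. Of these, 1 was lower at P-adj 0.05 in edgeR with Benjamini-Hochberg adjustment, where 0.851% of all genes were called. By unadjusted P at 0.01 in edgeR, 2 were higher and 1 lower, against 3.79% of all genes. The median LFC of the 5 was 0.66. Notochord markers summed to 1081 to 1128 CPM in TS+SM and 932 to 1076 CPM in TS, against 642 to 872 CPM in SM and 508 to 883 CPM in C, with no overlap between heat and 27 °C. Skin ionocyte markers were higher in SM than in C for 7 of 8 genes (median LFC 0.38) and mucous and secretory skin markers for 5 of 5 (0.54). Hatching gland markers were higher for 5 of 7 (0.12), erythroid markers for 1 of 6 (-0.14), neural markers for 2 of 7 (-0.16) and yolk syncytial layer markers for 2 of 5 (-0.02).

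**Figure D5:**
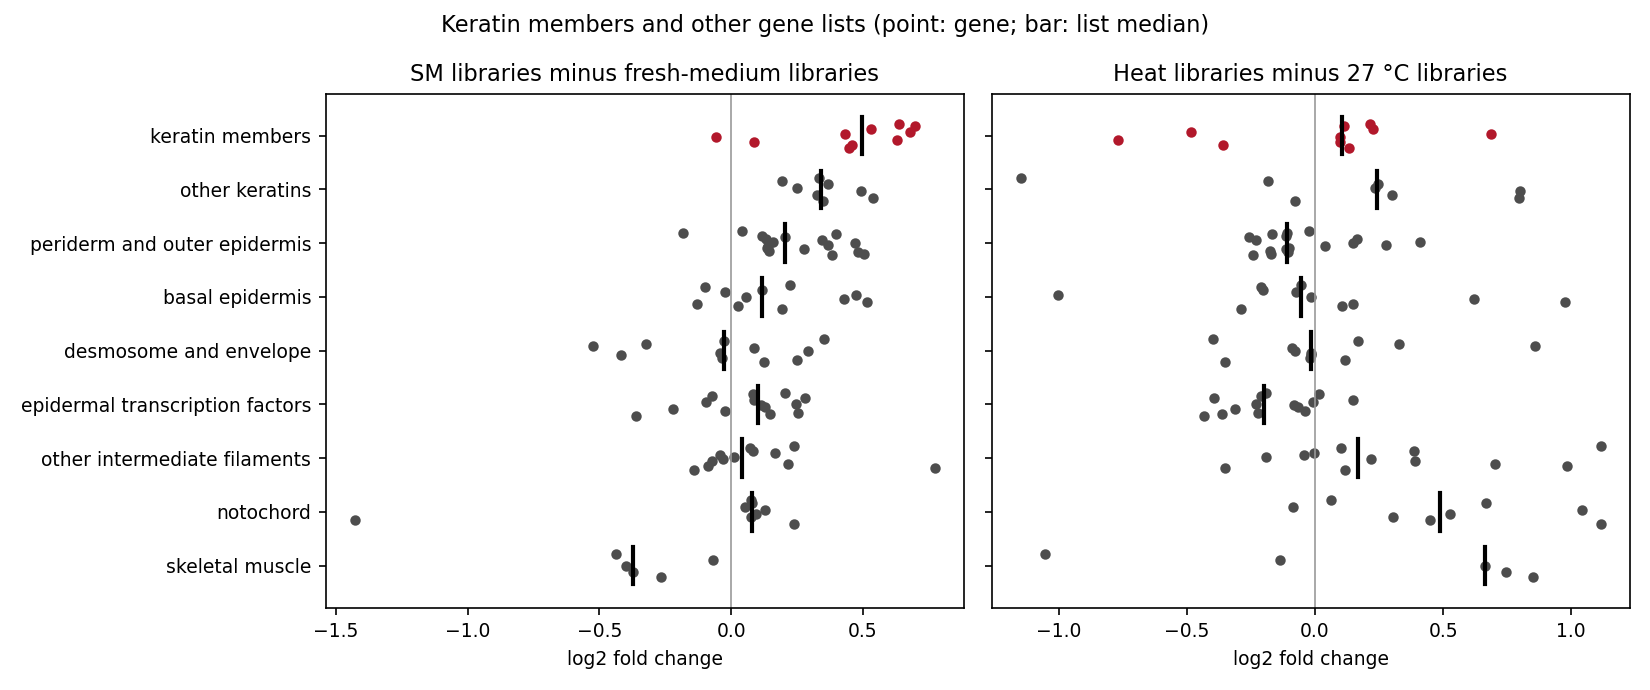
Log2 fold changes of the keratins and of 8 gene lists for SM averaged over temperature (left) and heat averaged over medium (right), with 1 point per gene and a bar at each list's median. The keratin medians are 0.50 on the left and 0.10 on the right.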

How the data were processed

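RNA-seq counts of 12 zebrafish libraries were used, 3 pools each of TS+SM, TS, SM and C. Per the submitters' processing notes and the study's methods, the authors trimmed reads with fastp 0.23.1 and deposited STAR 2.6.1 gene counts against GRCz11. The deposited tables hold raw, unnormalized counts per gene in 3 columns, of which the reverse-stranded column 4 was used. Rows that name no gene were left out of library sizes. Of all reads in a file, multi-mapping reads made up 4.51 to 10.4% and reads in no feature 9.42 to 12.2%.

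Genes were filtered with filterByExpr, which all 10 keratins passed, scaled by TMM and tested with edgeR 4.0.16 (quasi-likelihood F-test, R 4.3.3) on all 12 libraries, with treatment as a single factor and Benjamini-Hochberg adjustment over 18688 genes. Thresholds were P-adj 0.05 and the unadjusted P of 0.01 used by the study. SE is the absolute LFC over the square root of F. Log2 CPM used a prior count of 0.5. The procedure was also run on simulated counts with known changes in SM against C only. Those counts had no pairing between pools, so the run does not show how the tests perform on the real pools. Labels call the pools biological replicates of 1 line and give no clutch, so P-values measure the spread between pools. No pools within a group agreed within sampling noise (chi-square per degree of freedom 4.82 to 169). This chi-square was lowest between pools 1 and 2 in TS, SM and C, but not in TS+SM.

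The members and lists were chosen with earlier results of these data known. Named genes were all 10 keratins, and from each list those at P-adj 0.05 or otherwise the 2 most abundant. Of the marker lists for other tissues only sums, medians and counts of genes are given. Gene names matched 29206 of 32520 identifiers. Alternatives were DESeq2 1.42.0 (test, and its size factors in edgeR), no filter, a replicate block, unstranded counts, only the 6 libraries compared, each library left out and, added after seeing the data, library size alone. Same-numbered pools deviated together in TS against C (r = 0.26 to 0.77) and TS+SM against C (0.10 to 0.60), each over the threshold of 0.1, and not in SM against C (-0.30 to 0.30), so numbers were taken as pairing pools in those comparisons with C that involve heat. Keratin sequences, lengths and promoter motifs were not analysed here.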

Additional observations from a re-analysis of the deposited data

How the results depend on the processing

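At P-adj 0.05 the count of keratins called was 0 in all 8 comparisons and stayed 0 under all alternatives except the following, each with 1 call: DESeq2 in TS+SM against C and in heat averaged over medium, library size only in heat averaged over medium, and heat averaged over medium with single libraries left out (range 0 to 1). At an unadjusted P of 0.01, DESeq2 gave 1 call in TS against C, 4 in SM against C, 4 in TS+SM against C and 5 for SM averaged over temperature. Fitting only the 6 libraries compared gave 1 in TS against C, 6 in SM against C, 0 in TS+SM against C and 0 in TS+SM against SM. No filter on low counts gave 1 in TS against C. Library size only gave 1 in TS against C, 5 in SM against C and 3 in TS+SM against SM. With single libraries left out, counts at 0.01 ranged from 0 to 1 in TS against C, 0 to 4 in SM against C, 0 to 4 in TS+SM against C, 0 to 2 in TS+SM against SM, 0 to 1 in TS+SM against TS, 0 to 6 for SM averaged over temperature and 0 to 2 for heat averaged over medium.

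The replicate block, which pairs same-numbered pools, gave at 0.01 a count of 4 in SM against C, 5 for SM averaged over temperature and 1 for heat averaged over medium, and 3 in TS+SM against C. It gave 0 calls at P-adj 0.05 in all 8 comparisons.

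Library size only shifted the median of all genes to -0.16 in SM against C, -0.24 in TS+SM against C, -0.15 in TS+SM against TS and -0.15 for SM averaged over temperature. Relative to that median of all genes the keratin median in SM against C was 0.69. The LFC of *krt18a.1* in SM against C changed sign to -0.12 with library size only and ranged from -0.087 to 0.21 with single libraries left out. In TS+SM against SM, *krt4* turned to -0.00082 with DESeq2 size factors, -0.063 with the replicate block and -0.12 with library size only, and *krt97* to -0.0019 with the replicate block and -0.077 with library size only. With single libraries left out, values there ranged from -0.27 to 0.22 for *krt4*, -0.14 to 0.25 for *krt97* and -0.41 to 0.24 for *cyt1*, and in TS+SM against C from -0.52 to 0.14 for *krt17*. Library size only also turned the TS+SM against C values of *krt5*, *krt8*, *krt18a.1* and *krt92*, all within their SE of 0. With 3 pools per treatment, SEs were between 0.21 and 0.31 where single treatments were compared, and an LFC of -1.10 (*krt17*, TS+SM against SM) did not pass P-adj 0.05.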
